A study of Mus musculus with 6 samples.

Results

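The transcripts described here encode alpha subunits of heterotrimeric G proteins in haematopoietic stem and progenitor cells of the mouse. The 10 members, Gnas, Gnai1, Gnai2, Gnai3, Gnaz, Gnao1, Gnaq, Gna11, Gna13 and Gna15, were found by exact symbol among 38926 gene symbols, and all 10 were listed. RNA sequencing was done on cells with the surface phenotype Lin- Sca1+ cKit+ (LSK), sorted from marrow of the femur and tibia of untreated C57BL/6 mice aged 8 to 12 weeks. The wild type group (WT) and the group with a Drd2 Drd3 double knockout (KO) had 3 libraries each. Going by the labels, genotype is all that separates the groups, although sex appeared to differ too, as given below. The labels do not say how the alleles were made, whether animals were pooled, or whether replicates came from separate animals. The p-values therefore measure only the spread between these libraries, which may be technical within WT and between KO replicates 1 and 3. KO replicate 2 differed from KO replicates 1 and 3 in sex-linked transcripts, given below, and so was not the same sample.

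A G protein is a switch on the inner face of the plasma membrane. An activated receptor makes the alpha subunit exchange GDP for GTP, upon which the alpha subunit and the beta-gamma pair part and act on their effectors until the alpha subunit hydrolyses its GTP. The alpha subunit sets the class: Gs stimulates adenylyl cyclase and so raises cAMP, Gi/o inhibits it and releases much of the cell's free beta-gamma, Gq activates phospholipase C beta, and G12/13 acts through a set of guanine nucleotide exchange factors on the cytoskeleton. Among the receptors that couple to Gi/o are Drd2 and Drd3, the targeted D2-like dopamine receptors, as well as the chemokine and sphingosine-1-phosphate receptors that guide blood stem cells in and out of the marrow.

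The end of the alpha subunit enters the activated receptor and carries much of the coupling selectivity. The last 11 codons before the stop codon are therefore shown for selected members, with each class included (coding transcripts of GENCODE M21, build GRCm38, 5′ to 3′). Capitals mark codon 4 from the end, the place of the cysteine that pertussis toxin modifies in most Gi/o subunits.
Gnai2: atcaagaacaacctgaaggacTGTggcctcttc
Gnai3: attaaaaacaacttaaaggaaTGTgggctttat
Gnaz: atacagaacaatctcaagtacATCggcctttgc
Gnas: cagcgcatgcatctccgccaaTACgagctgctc
Gnaq: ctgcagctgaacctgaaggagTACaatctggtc
Gna15: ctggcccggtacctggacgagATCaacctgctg
Gna13: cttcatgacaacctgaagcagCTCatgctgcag
Gnai2 and Gnai3 have the cysteine codon TGT there, while Gnaz, the pertussis toxin-resistant member of the class, has ATC. Gnai2 and Gnai3 share 24 of these 33 bases, Gnaq and Gna11 share 31, and Gnaq and Gna15 only 21.

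The values are FPKM, in which reads are divided by gene length and by library depth, so levels of different genes can be set side by side as far as that length fits the transcripts present. For Gnas it is much longer than the coding transcripts, which lowers its level and share in the next sentences, as given with that gene below. In these units the libraries labelled WT held mostly Gi/o transcripts. The Gi/o members made up 83.8 ± 0.759% of the summed FPKM of the 10 genes (SD, n = 3 per group throughout), the Gq members 9.14 ± 0.993%, Gnas (Gs) 4.64 ± 0.302% and Gna13 2.42 ± 0.0582%. Gnai2 alone was 71.7 ± 1.78%. With the lengths behind the deposited FPKM, the order of WT means was Gnai2, Gnai3, Gna15, Gnas, Gna13, Gnaq, Gna11, Gnaz, Gnai1 and Gnao1. The WT values of neighbours in this order overlapped only between Gnaq and Gna11 and between Gnai1 and Gnao1.

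**Figure D1:**
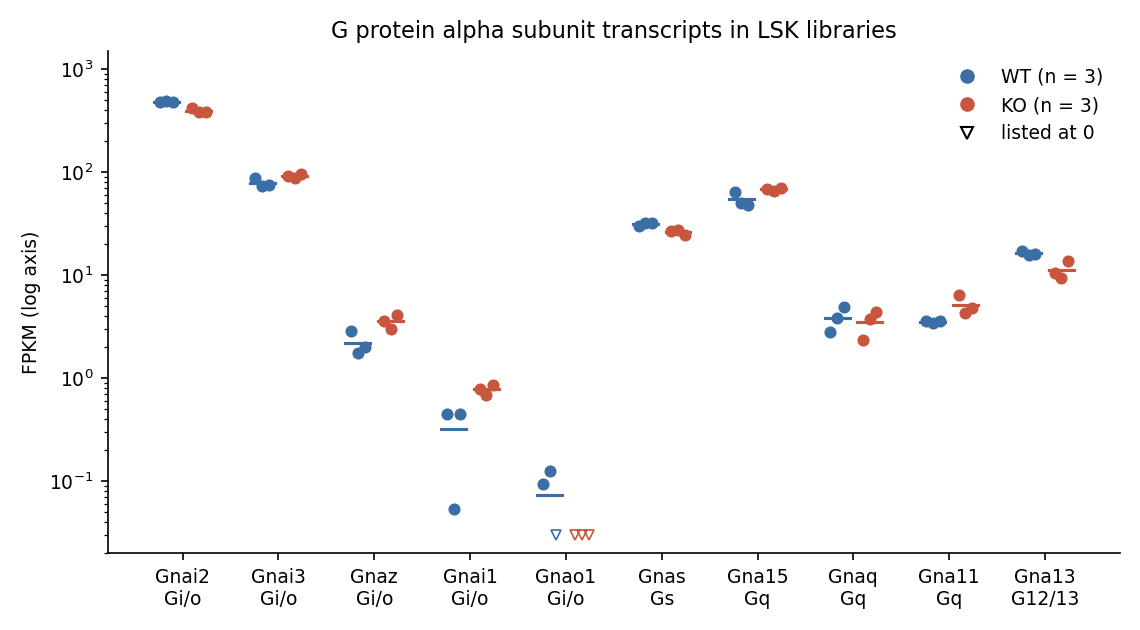
FPKM (log axis) of the 10 alpha subunit genes, 1 point per library, with lines at group means and open triangles where a gene was listed at 0. Gnai2 lies above every other member in all 6 libraries, and Gnao1 was listed at 0 in the 3 libraries labelled KO.

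The libraries first need a check of their labels. All positions are in build GRCm38 (mm10). No FPKM above 0 was listed for Drd2 (chromosome 9, 49340627 to 49408177). For Drd3 (chromosome 16, 43754026 to 43822932) the 3 WT values were 0 and the KO values were 1.62, 3.08 and 3.04 FPKM. Drd3 transcript was thus listed only in the libraries labelled KO, and the labels do not say how its alleles were made. RNA from a targeted allele and labels that differ from the genotypes cannot be told apart here. WT and KO therefore stand throughout for libraries labelled as such. The Y-linked gene Ddx3y was at 12.5 to 15.1 FPKM in 4 libraries and at 0 in those labelled KO replicates 1 and 3. In KO replicates 1 and 3 the X-linked transcript Xist was at 1.96 and 2.01 FPKM, against 0 elsewhere. The plasma cell transcript Igkc was also at 3182 and 1173 FPKM there, against at most 4.93 FPKM elsewhere. By these sex-linked transcripts, sex varied in part along with genotype, and their effects cannot be fully told apart here. The sorting markers Kit and Ly6a, which encodes Sca1, were present in every library, at 82.5 to 150 and 110 to 161 FPKM. Cd34, the highest of the listed markers of the gate and progenitors, was at 675, 691 and 659 FPKM in WT. In KO it was lower, at 460, 366 and 406 FPKM. The sums of that list overlapped, at 1243 to 1389 FPKM in WT and 1096 to 1269 FPKM in KO. The part of these markers in the alpha subunit values was not tested. Of the 10 genes listed as markers of the gate and progenitors, 3 were called higher and 2 lower in KO. The test is given below, and it called 5.48% of all genes higher and 5.43% lower. Between 15632 and 16220 genes were above 0 per library, and 1 read in a gene of 2000 bases stood for 0.0693 to 0.0921 FPKM.

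Gi/o subunits come first. Gnai2 (chromosome 9, 107614125 to 107635367, minus strand), the main Gi subunit of leukocytes, was at 480, 488 and 478 FPKM in WT replicates 1 to 3 and at 417, 383 and 380 FPKM in KO replicates 1 to 3. By WT mean it ranked 89 among the 11371 genes whose mean over the 6 libraries reached 1 FPKM. Gnai3 (chromosome 3, 108107280 to 108146146, minus strand), which encodes a close relative with largely shared targets, was at 87.5, 73.2 and 74.9 FPKM in WT and at 91.5, 88.0 and 96.1 FPKM in KO. All 3 KO values of Gnai2 lay below the WT values, and all 3 of Gnai3 lay above them. The ratio of Gnai2 to Gnai3 was 6.18 ± 0.615 in WT and 4.29 ± 0.307 in KO, and their sum was 561 ± 7.18 and 485 ± 20.5 FPKM.

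The other Gi/o members were low. Gnaz (chromosome 10, 74967177 to 75016907, plus strand), which encodes the Gz subunit of platelets and neurons, was at 2.88, 1.75 and 1.99 FPKM in WT and at 3.61, 3.00 and 4.13 FPKM in KO. The lowest KO value of Gnaz was above the highest WT value. Gnaz lies within Rsph14 on the other strand, and reads of the 2 genes cannot be told apart by strand. Markers of megakaryocytes and platelets, 8 of 10 of which reached that mean and none of which was at 0 throughout, summed to 104 to 167 FPKM in WT and to 170 to 266 FPKM in KO. Their part in the values of Gnaz was not tested. In bulk RNA, fewer cells of a type and less RNA per cell cannot be told apart.

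Gnai1 (chromosome 5, 18265135 to 18360355, minus strand), a Gi subunit best known from brain, was at 0.451, 0.0534 and 0.451 FPKM in WT and at 0.781, 0.680 and 0.866 FPKM in KO. These values rest on 9, 1 and 9 reads and on 18, 15 and 15 reads, the smallest whole numbers that fit. Gnao1 (chromosome 8, 93809966 to 93969388, plus strand), which encodes the Go subunit of neurons, was at 0.0944 and 0.126 FPKM in WT replicates 1 and 2, which is 4 and 5 reads, and was listed at 0 in the other 4 libraries. Neither gene reached the mean of 1 FPKM needed to be tested. The remaining 8 members did.

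Gnas is the Gs member (chromosome 2, 174284320 to 174346744, plus strand), an imprinted locus with several promoters whose transcripts share their last exons. It was at 29.6, 31.6 and 32.2 FPKM in WT and at 27.0, 27.6 and 24.7 FPKM in KO, so that every KO value lay below every WT value. Its place in the order of levels depends on gene length. The deposited FPKM of Gnas match whole reads over 11186 bases, the length of all annotated exons together, whereas its 6 coding transcripts that end at the Gs alpha stop codon are 1716 to 3903 bases long. In reads Gnas had 2067, 2074 and 2251 in WT, above the 1783, 1400 and 1526 reads of Gnai3. Per kilobase of the longest of these transcripts Gnas was at 89.3 ± 3.94 FPKM in WT, and per kilobase of the shortest at 203 ± 8.95 FPKM. It then stood second to Gnai2 by mean, but with the longest transcript its WT range of 84.8 to 92.3 FPKM overlapped that of Gnai3.

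With every member recomputed in this way, Gs took 12.3 ± 0.751% (longest transcripts) or 21.2 ± 1.1% (shortest) of the WT sum in place of 4.64%, and Gi/o took 76.2 ± 0.407% or 70.0 ± 0.310%. The smallest gene length that gives whole reads for Gnai2 was 2177 bases, close to the 2215 bases of its longer coding transcript, and its level was recomputed from that length. A multiple of it would fit as well and would raise Gnai2 and these Gi/o shares, but each multiple exceeds the 3779 bases of all its exons in GENCODE M21. In WT Gi/o was the largest class and Gs stood above Gq with both lengths. All reads of the locus count towards Gnas here, including those of transcripts that encode other proteins. The library kit does not mark strand, and the antisense transcripts annotated there cannot be told apart from Gnas.

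**Figure D2:**
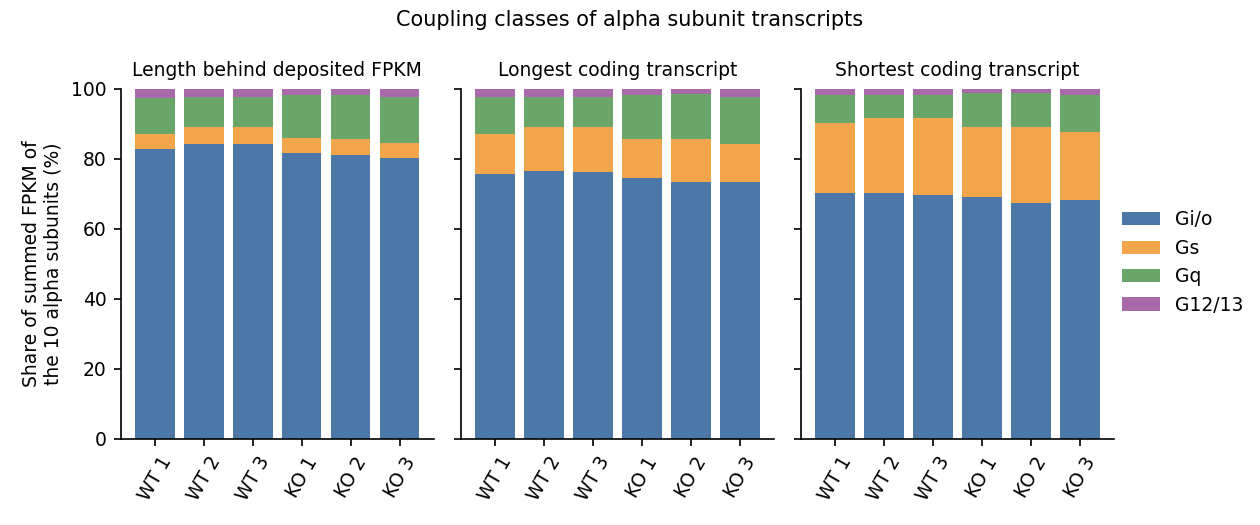
Share of the summed FPKM of the 10 alpha subunits (percent) held by each class in each library, with the gene length behind the deposited FPKM and with the length of the longest or shortest coding transcript. The Gs share of the WT libraries goes from 4.64% to 12.3% and 21.2%, while Gi/o stays the largest class.

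Among the Gq members, nearly all of the signal was Gna15 (chromosome 10, 81502306 to 81524225, minus strand), which encodes the broadly coupling subunit of blood cells. It was at 64.4, 49.8 and 48.2 FPKM in WT and at 68.9, 65.5 and 70.5 FPKM in KO, a narrow gap between WT replicate 1 and KO replicate 2. Gna11 lies next to it (chromosome 10, 81528724 to 81545190, minus strand) and encodes a widely expressed Gq relative. It was at 3.6, 3.41 and 3.56 FPKM in WT and at 6.43, 4.27 and 4.77 FPKM in KO, again without overlap. Gnaq (chromosome 19, 16132831 to 16387463, plus strand), the founding member of the class, was at 2.77, 3.86 and 4.87 FPKM in WT and at 2.33, 3.77 and 4.35 FPKM in KO, and its groups overlapped. The processed pseudogene Gm10819 lies within the span of Gnaq on the other strand and was at 3.43 to 5.17 FPKM. Whether they share reads was not tested. Gna15 made up 87.8 ± 2.98% of the summed FPKM of Gna15, Gna11 and Gnaq in WT and 88.8 ± 0.265% in KO.

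Gna13 (chromosome 11, 109362831 to 109401369, plus strand) couples receptors to the cytoskeleton. It was at 17.1, 15.8 and 15.95 FPKM in WT and at 10.5, 9.37 and 13.6 FPKM in KO, and KO replicate 3 was nearest to the WT values. Its start overlaps the antisense gene Gm11696, which was at 0.123 to 2.0 FPKM. Its relative Gna12, which is no member, was higher in every library, at 36.1, 35.6 and 38.7 FPKM in WT and at 39.4, 40.5 and 51.5 FPKM in KO. The ratio of Gna12 to Gna13 was 2.26 ± 0.160 in WT and 3.95 ± 0.323 in KO, and the sum of both was 53.1 ± 1.62 and 55.0 ± 8.76 FPKM. With all 16 genes of the family counted, Gi/o held 78.9 ± 0.645% in WT and G12/13 7.42 ± 0.290%.

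The comparison of KO with WT asked whether the alpha subunits differ in cells in which Drd2 and Drd3 are targeted. None of the 8 members tested passed limma's test on log2(FPKM + 1), in which a gene was called where its p, adjusted by Benjamini-Hochberg over all 11371 genes, was under 0.05 and 10.9% of genes were called (5.48% higher and 5.43% lower in KO). At an unadjusted p under 0.05 there were 7 of 8, beside 27.5% of all genes tested. In 7 of 8 the groups were fully apart, with KO above WT in 4 and below in 3, beside 32.8% of all genes tested. The 95% intervals printed below are those of single genes, not adjusted for the number of genes.

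Gna13 was closest to the threshold, at a mean of 16.3 ± 0.714 FPKM in WT and 11.2 ± 2.17 FPKM in KO (log2 fold change -0.52, 95% interval -0.85 to -0.19, limma adjusted p = 0.0510). It passed without KO replicate 3 (limma adjusted p = 0.0148), with a pseudocount of 0.1 (0.0499) and with only genes whose mean reached 5 FPKM (0.0362). Without the KO libraries in which Ddx3y was at 0 the value was 0.0496, but that fit holds 1 KO library against 3 WT libraries and takes its spread from WT alone. Its alternatives ranged from 0.0148 to 0.157. Gnai2 was at 482 ± 4.86 and 393 ± 20.6 FPKM (-0.29, -0.49 to -0.10, limma adjusted p = 0.0616). It passed once each library was rescaled to the same FPKM sum (limma adjusted p = 0.0247, range 0.0247 to 0.208). The KO mean of Gnai2 was 81.6% of the WT mean and that of Gna13 was 68.5%.

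Gna15 was at 54.1 ± 8.95 and 68.3 ± 2.55 FPKM (log2 fold change 0.34, 95% interval 0.07 to 0.62, limma adjusted p = 0.105). It passed without WT replicate 1 (limma adjusted p = 0.0479, range 0.0479 to 0.373), the WT library in which Gna15 was highest. For Gnaz the log2 fold change was 0.52 (0.07 to 0.98, limma adjusted p = 0.129) and for Gna11 0.43 (0.03 to 0.83, limma adjusted p = 0.149). Gnas differed by -0.23 (-0.46 to -0.0022, limma adjusted p = 0.178) and Gnai3 by 0.23 (0.00055 to 0.45, limma adjusted p = 0.181). Gnaq differed by -0.11 with the widest interval of the 8 (-0.65 to 0.42, limma adjusted p = 0.799). These 5 did not pass under any alternative, and the sign of Gnaq changed under some of them. All 8 intervals lay within 1 log2 unit of 0 on this scale, which understates the change of low genes such as Gnaz.

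**Figure D3:**
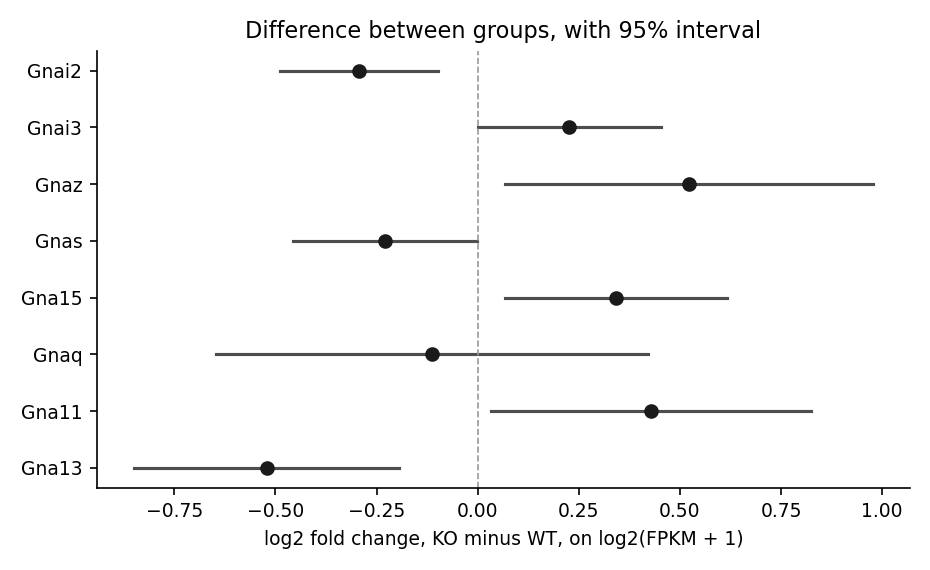
Log2 fold change of KO against WT on the log2(FPKM + 1) scale for the 8 members tested, with the 95% interval of each from limma's fit. The estimates run from -0.52 for Gna13 to 0.52 for Gnaz, and none has an adjusted p under 0.05.

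As shares of the 10 genes, Gi/o was at 82.9, 84.3 and 84.1% in WT and at 81.7, 81.1 and 80.3% in KO. Gq was at 10.3, 8.55 and 8.57% in WT and at 12.4, 12.6 and 13.3% in KO. Neither of these classes overlapped between the groups, nor did the share of Gna13, at 2.42 ± 0.0582% in WT and 1.85 ± 0.364% in KO. The share of Gnas did overlap, at 4.64 ± 0.302% and 4.38 ± 0.305%. With all 16 genes of the family counted, the G12/13 share overlapped as well, at 7.42 ± 0.290% and 8.39 ± 1.35%. The summed FPKM of the 10 genes was 672 ± 14.7 in WT and 604 ± 22.0 in KO. These sums follow from the single genes and were not tested.

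The partners of the alpha subunits were read from fixed lists in the same fit, with 105 of 107 symbols in the table and 56 tested. Of these, 7 were higher and 8 lower in KO. That is 15 of 56 called, beside 10.9% of all genes tested (5.48% higher and 5.43% lower). Among the 15 are Drd3, itself a targeted gene, and Htr2a, both with WT means under 1 FPKM. Ccr7, Ccr9 and Ptgir are among them too, with KO means under 1 FPKM. These genes reached the filter only through the group in which they were higher. Without the KO libraries in which Ddx3y was at 0, 5 partner genes were called beside 4.52% of all genes. That fit sets 1 KO library against 3 WT libraries, assumes that the lone library varies like WT, and is included in the ranges printed here for single genes. Htr2a and Ptgir below were at 0.0546 and 0.0537 in it (limma adjusted p, ranges 0.00626 to 0.0546 and 0.00688 to 0.0537). The 15 called genes were 1 of 2 G12/13 effectors, 2 of 4 beta subunits, 2 of 7 gamma subunits and 10 of 26 receptors tested. None of 4 other alpha subunits, 6 chaperones and activators, 4 Gq effectors or 3 adenylyl cyclases was called by limma, and at an unadjusted p under 0.05 there was only the chaperone Ric8b (adjusted p = 0.0864). The median log2 fold change of the 56 was -0.01, beside -0.002 over all genes tested.

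Beta and gamma subunits form the obligate pair that holds the inactive alpha subunit at the membrane. The most abundant beta subunits were Gnb1, at 68.3 ± 4.90 FPKM in WT and 74.9 ± 16.6 FPKM in KO, and Gnb2, at 57.9 ± 4.0 and 48.7 ± 2.16 FPKM, neither of which passed (limma adjusted p = 0.681 and 0.138). The scarcer Gnb4 rose from 3.08, 4.0 and 2.88 FPKM to 10.3, 6.79 and 7.14 FPKM (a log2 fold change of 1.06 with an SE of 0.192, limma adjusted p = 0.0107). Gnb5, which pairs with RGS proteins of the R7 family as well as with gamma subunits, rose from 7.42, 7.04 and 5.93 FPKM to 10.1, 11.3 and 14 FPKM (0.71, SE 0.155, limma adjusted p = 0.0212). Leaving out WT replicate 1, 2 or 3 ended the call of Gnb5 (limma adjusted p = 0.0524, 0.0768 and 0.0863, range 0.0157 to 0.106), as did fitting all genes with no filter on low values (0.0592).

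Of the gamma subunits, Gng5 was highest in WT at 63.9 ± 5.07 FPKM and was at 64.8 ± 3.73 FPKM in KO (limma adjusted p = 0.911). Gng11, a farnesylated gamma subunit, rose from 41.9, 31.6 and 41.1 FPKM to 88.0, 69.1 and 69.1 FPKM (0.96, SE 0.141, limma adjusted p = 0.00432), which put its KO mean of 75.4 FPKM above that of Gng5. Gng12 fell from 24.1, 24.6 and 20.2 FPKM to 17.3, 14.2 and 16.5 FPKM (-0.49, SE 0.127, limma adjusted p = 0.0381). The call of Gng12 ended when WT replicate 1, 2 or 3 was left out (limma adjusted p = 0.130, 0.155 and 0.0585) and when KO replicate 1 or 2 was (0.0545 and 0.0976, range 0.0259 to 0.155). It also ended with no filter (limma adjusted p = 0.0770) and with no mean-variance trend (0.0654). Gnb4 and Gng11 passed under every alternative but that without the KO libraries in which Ddx3y was at 0, which leaves 1 KO library (limma adjusted p = 0.0970, range 0.00936 to 0.0970, and 0.0655, range 0.00180 to 0.0655). The summed megakaryocyte and platelet markers given above lay higher in every KO library too. Erythroid markers, 8 of 9 of which reached a mean of 1 FPKM, summed to 541 to 979 FPKM in WT. In KO their sum was 1078 to 2018 FPKM, and 3 of the 8 were called higher, beside 5.48% of all genes tested. Markers of mast cells and basophils, 7 of 9 of which reached that mean, summed to 53.9 to 92.3 FPKM in WT. In KO they summed to 66.9 to 137 FPKM, overlapping WT and highest in KO replicate 1. Of the 7, 3 were called higher, again beside 5.48% of all genes. None of these markers was at 0 throughout. The summed markers of endothelial and stromal cells, 6 of 9 of which reached a mean of 1 FPKM, were at 43.2 to 45.2 FPKM in WT. In KO they were at 28.9 to 34.8 FPKM. Of the 6, 1 was called higher and 2 lower, beside 5.48% and 5.43% of all genes tested. Neutrophil markers, 8 of 9 of which reached that mean, summed to 707 to 717 FPKM in WT and 461 to 1117 FPKM in KO. Their median log2 fold change was -1.17, and 0 of the 8 were called. Markers of B and plasma cells, 7 of 9 of which reached it, summed to 348 to 369 FPKM in WT. In KO, with Igkc included, they summed to 163 to 3617 FPKM, and 0 of the 7 were called, beside 10.9% of all genes tested. The part of all these lists in Gng11 and in the other partner and alpha subunit values was not tested.

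**Figure D4:**
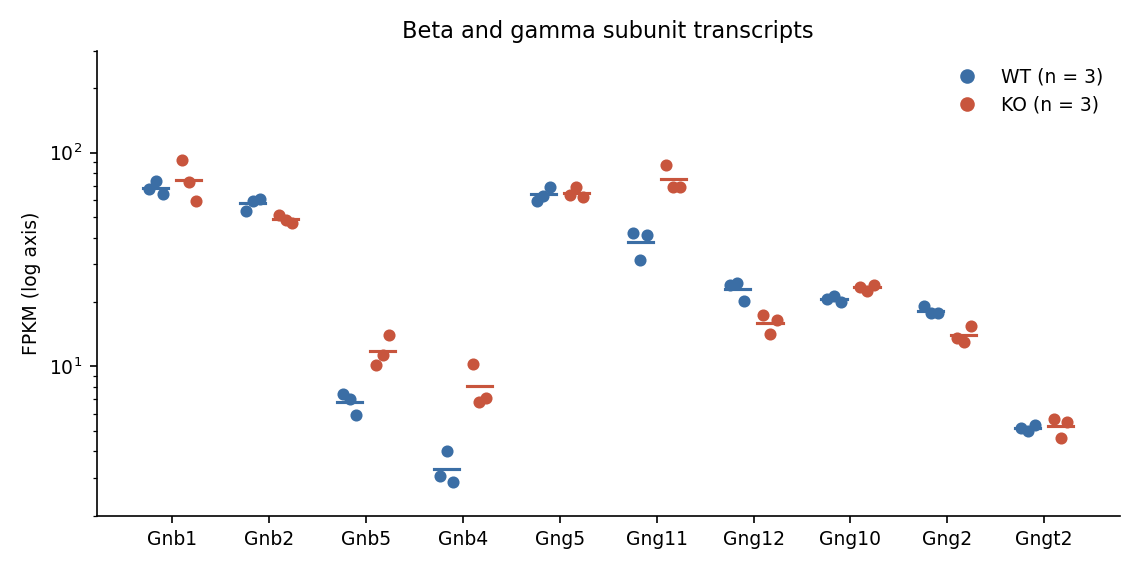
FPKM (log axis) of 4 beta and 6 gamma subunit genes, 1 point per library, with lines at group means. Gnb4, Gnb5, Gng10 and Gng11 lie higher and Gnb2, Gng2 and Gng12 lower in every library labelled KO than in any labelled WT. Gnb1, Gng5 and Gngt2 overlap. Gnb2, Gng2 and Gng10 were not called, and the groups were fully apart in 32.8% of all genes tested.

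Downstream, Akap13, an exchange factor that acts with G12/13, fell from 17.7 ± 1.94 to 12.2 ± 1.25 FPKM (limma adjusted p = 0.0408). That call ended when WT replicate 1, 2 or 3 was left out (limma adjusted p = 0.146, 0.0909 and 0.110) and when KO replicate 1 or 2 was (0.10 and 0.103, range 0.0275 to 0.146). It also ended with no filter (limma adjusted p = 0.0785), after rescaling (0.0609) and with no trend (0.0618). The other G12/13 effector tested, Arhgef1, did not pass (limma adjusted p = 0.217), with 41.2 ± 2.43 FPKM in WT and 34.3 ± 5.53 FPKM in KO. The main adenylyl cyclase transcript was Adcy7, at 11.2 ± 2.45 and 9.61 ± 2.11 FPKM, and of the phospholipases C beta, Plcb2 was at 9.20 ± 1.53 and 8.16 ± 0.154 FPKM and Plcb3 at 8.10 ± 1.53 and 8.08 ± 1.69 FPKM. The levels of Plcb2 and Plcb3 overlapped. All 3 genes, named here for their level after the values were seen, had overlapping WT and KO values.

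Receptors were listed by their main class. Of 10 Gi-coupled receptors tested, 2 were higher and 3 lower in KO, beside 5.48% and 5.43% of all genes tested. The sphingosine-1-phosphate receptor S1pr1, which draws cells out of the marrow, rose from 25.1 ± 2.40 to 58.3 ± 13.4 FPKM (a log2 fold change of 1.17 with an SE of 0.155, limma adjusted p = 0.00286) and passed under all 14 alternatives. Drd3 was the other. The chemokine receptor Ccr7 fell from 2.31 ± 0.608 to 0.357 ± 0.310 FPKM and Ccr9 from 2.18 ± 0.966 to 0.518 ± 0.298 FPKM. Their log2 fold changes were -1.30 and -1.04 with the pseudocount of 1 and -2.78 and -1.91 with one of 0.1. P2ry14, a receptor for UDP-glucose, fell from 51.4 ± 2.79 to 34.6 ± 8.80 FPKM. The call of Ccr7 ended when WT replicate 1 or 2 was left out (limma adjusted p = 0.0693 and 0.0678, range 0.0158 to 0.0842). That of Ccr9 ended with any WT replicate left out (limma adjusted p = 0.138, 0.0773 and 0.0831) and with KO replicate 1 or 3 left out (0.0983 and 0.0694, range 0.0383 to 0.252), as well as with no filter (0.0899). That of P2ry14 ended with any WT replicate left out (limma adjusted p = 0.0993, 0.151 and 0.132) and with KO replicate 1 or 2 left out (0.128 and 0.122, range 0.00371 to 0.151). It also ended with no filter (limma adjusted p = 0.119), after rescaling (0.0662) and with no trend (0.0885).

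Of 8 Gs-coupled receptors tested, 2 were called lower and none higher, beside 5.43% and 5.48% of all genes tested. With 8 genes, the lack of higher calls is near that share and gives no direction for the class. The prostacyclin receptor Ptgir fell from 2.87 ± 0.362 to 0.393 ± 0.303 FPKM (limma adjusted p = 0.00534), and Calcrl, the receptor of CGRP and adrenomedullin, from 24.4 ± 2.13 to 14 ± 5.31 FPKM (limma adjusted p = 0.0407). The call of Calcrl ended with any WT replicate left out (limma adjusted p = 0.135, 0.125 and 0.0940) and with KO replicate 1 or 2 left out (0.120 and 0.114, range 0.00275 to 0.135). It also ended with no filter (limma adjusted p = 0.120), after rescaling (0.0598) and with no trend (0.0750).

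Of 8 Gq-coupled receptors tested, 2 were higher and 1 lower, beside 5.48% and 5.43% of all genes tested. The thromboxane receptor Tbxa2r fell from 19.7 ± 2.27 to 7.51 ± 2.2 FPKM (a log2 fold change of -1.31 with an SE of 0.196, limma adjusted p = 0.00464) and passed under all 14 alternatives. The serotonin receptor Htr2a rose from 0.508 ± 0.247 to 3.30 ± 0.849 FPKM and the ADP receptor P2ry1 from 1.15 ± 0.289 to 3.03 ± 0.410 FPKM (limma adjusted p = 0.00534 and 0.0217). The call of P2ry1 ended with WT replicate 2 or 3 left out (limma adjusted p = 0.0776 and 0.0837) and with KO replicate 2 left out (0.0645, range 0.0139 to 0.0837), as well as with no filter (0.0597). Platelets carry P2ry1 and Tbxa2r as well, and the part of the megakaryocyte and platelet markers in these values was not tested.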

How the data were processed

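The deposited table holds 1 FPKM value per gene symbol and library, scaled by the authors for gene length and depth. The kits were SMART-Seq v4 Ultra Low Input for cDNA and Nextera XT for libraries, per the labels' protocols. The submitters' processing notes list mm10, DESeq2 1.18.1, HTSeq 0.6.1, TopHat2 2.1.1 and bcl2fastq 2.19.1.403 without roles. The annotation was not given in the sources used here.

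What 1 read is worth was taken as the commonest value of FPKM times exon length (GENCODE M21). With it, 9829 of 18084 genes (54.4%) gave whole reads in every library (tolerance 0.001). For the others (Gnai1, Gnai2 and Gnao1 among the members) the smallest whole reads with a whole gene length were used, which are lower bounds. Genes whose mean reached 1 FPKM were compared on log2(FPKM + 1) with limma 3.58.1 (R 4.3.3; lmFit, then eBayes with trend) and two-sided p-values adjusted by Benjamini-Hochberg. The code was tested on simulated data. Python 3.11.15, numpy 2.4.6, pandas 2.3.3 and matplotlib 3.10.9 were used.

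All 10 members were named, of the partner lists up to 4 called genes each by smallest p (P2ry14 is the fifth of its list), and the 2 highest beta and gamma subunits. Genes of similar pattern were to be named for called members, of which there were none. The members and lists were chosen with earlier results of these data known. Ric8a was not analysed here, and 1 receptor gene of the lists is not reported here. Alternatives were other pseudocounts, filters and scaling, no trend, a replicate block, each library left out, and coding transcript lengths, the last added after the data were seen.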

Additional observations from a re-analysis of the deposited data

How the results depend on the processing

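The count of alpha subunits called was 0 in the fit reported and 1 with a pseudocount of 0.1, with a mean of 5 FPKM required, after rescaling to a common FPKM sum, and without the KO libraries in which Ddx3y was at 0 (1 KO library against 3 WT, with the spread taken from WT). It was 0 to 1 when single replicates were left out. Genes called numbered 588 with no filter on low values, 805 with the replicate block, 514 without the KO libraries with Ddx3y at 0 and 370 to 1598 with single replicates left out, against 1240. For the partner lists the counts were 8, 9, 5 and 7 to 17, and 9 with a mean of 5 FPKM required, against 15. The 2 filters also changed how many genes were tested. With no filter 588 of 19373 genes were called, and 1120 of 7727 with a mean of 5 FPKM required, against 1240 of 11371. Of the 15 partner genes, Drd3, Htr2a, P2ry1, Ccr7, Ccr9 and Ptgir did not reach that mean and were not tested. The other 9 were still called. Which property of each setting otherwise moved these counts was not tested. Samples with the same number did not deviate together (r = -0.031, 0.045 and -0.116), so the replicate block, under which 0 alpha subunits were called, pairs by number alone. The WT Gi/o share of 83.8% was 78.9% over the whole family, 87.9% without Gnas, 76.2 and 70.0% with the longest and shortest coding transcripts as length, and 83.5 to 84.2% with single WT replicates left out. The log2 fold change of Gnaq was 0.0034 without the KO libraries with Ddx3y at 0. With single replicates left out it ran from -0.28 to 0.087 for Gnaq, from -0.051 to 0.26 for Gnb1 and from -0.026 to 0.084 for Gng5. Depth limits Gnai1 and Gnao1, which rest on 67 and 9 reads in all. The call of Gnb5 was lost with the replicate block (limma adjusted p = 0.0565), as were those of Gng12 (0.0775), Akap13 (0.0769), Ccr9 (0.0718), P2ry1 (0.0509) and Calcrl (0.0576), and no other gene named in the text changed its call under it.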
